A study of Sus scrofa with 2 samples.

Results

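Natriuretic peptides and nitric oxide both act on cells by raising cyclic GMP (cGMP). In the heart, stretched muscle cells release peptides such as B-type natriuretic peptide, the product of NPPB. The receptor NPR1 is itself a guanylate cyclase that answers them, and NPR3 is a receptor that clears the peptides. Nitric oxide acts through a second enzyme, soluble guanylate cyclase, a pair of 1 alpha subunit (GUCY1A1 or GUCY1A2) and the beta subunit GUCY1B1. The cGMP made by either route activates the kinase encoded by PRKG1, which relaxes vascular muscle, and is split by phosphodiesterases. PDE5A is specific for cGMP, while PDE3A splits cyclic AMP and is slowed by cGMP. These 9 genes were taken by their symbols from a list chosen for the pathway, and all 9 of them were among the 31908 genes of both count matrices. NPPA, the gene of atrial natriuretic peptide, was not analysed here.

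The levels come from RNA sequencing of single nuclei isolated from the frozen free wall of the left ventricle of Bama pigs, a miniature breed. One library came from triple-transgenic pigs (TG) with the constructs PNPLA3I148M, a variant of a lipid droplet protein, GIPRdn, a dominant-negative form of the receptor for the gut hormone GIP, and hIAPP, human islet amyloid polypeptide. The other came from wild-type pigs (WT), and both genotypes had received a diet high in fat and sucrose for 12 months. The labels do not state the number or age of the pigs behind a library, or the promoters of the transgenes. With 1 library per genotype, a difference between the genotypes cannot be told apart from one between 2 animals or 2 preparations, and no test was made.

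The TG library held 15000 barcodes with 89324966 unique molecular identifiers (UMIs, counted RNA molecules) and the WT library 18251 barcodes with 127126477 UMIs. After filtering, 14939 TG and 16725 WT nuclei remained, with medians of 3937 UMIs in TG and 5442 in WT, and the lowest barcode total was 1972 UMIs in TG and 500 in WT. The libraries shared 81 barcode sequences, 75 of them among the nuclei kept. Clustering, from which the 9 genes were left out, gave 29 clusters, of which 21 carried the markers of 1 class and 8 carried those of more than 1 and were set aside. Classes are called "-like" because they rest on transcripts alone, and the shorter names below stand for the same classes. TG fibroblast-like nuclei lay mostly in cluster 6 (1936 of 1982) and WT ones in cluster 3 (2404 of 2850), so fibroblast values compare different clusters. Of these, 9 classes had at least 100 nuclei in both libraries, and orders of classes below are among these 9, with cardiomyocyte-like nuclei the most numerous at 5310 in TG and 6786 in WT.

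A level is the sum of a gene's UMIs in a class per 1000000 nuclear-encoded UMIs of that class (CPM), with an exact 95% Poisson interval, and a ratio is TG over WT. A gene is called higher or lower in TG where the ratio reached 1.5 in either direction, its 95% interval left out 1 and both libraries together held at least 20 UMIs. All intervals, those of shares included (Clopper-Pearson), cover counting error only. Levels are compared between classes and libraries and not between genes, because transcript length affects how many UMIs a gene gives.

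Cardiomyocyte transcripts were found in the 8 other compared classes, with a higher median in TG in each. The median cardiomyocyte marker stood in pericyte-like nuclei at 54.9% of its cardiomyocyte level in TG and 32.0% in WT. In T or NK lymphocyte-like nuclei the median was 45.8% in TG and 23.2% in WT, and in macrophage-like nuclei 13.1% in TG and 3.12% in WT. The myosin light chain gene MYL2 reached 134% to 176% of its cardiomyocyte level in the 8 other classes of TG, against 34.7% to 61.9% in those of WT.

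In cardiomyocyte-like nuclei NPPB stood at 8.20 CPM in TG (7.40 to 9.07, 382 UMIs) and 0.735 CPM in WT (0.554 to 0.957, 55 UMIs). The ratio of 11.2 (8.39 to 15.1) was the highest of the 9 genes in this class. The transcript was found in few nuclei, 121 of 5310 in TG (2.28%, 1.89 to 2.72) and 16 of 6786 in WT (0.236%, 0.135 to 0.383). After each nucleus was thinned to 1000 UMIs, 26 of 5310 TG nuclei and 4 of 6718 WT nuclei kept a UMI of NPPB, with 68 shallower WT nuclei left out. The UMIs were concentrated, since the 10 nuclei with the most held 59.4% of them in TG and 89.1% in WT, and 1 nucleus alone held 82 in TG and 18 in WT. Thus the level in either library rested on a small number of nuclei, and more TG than WT nuclei held the transcript.

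The NPPB level also differed between clusters. TG cardiomyocyte-like nuclei lay mostly in clusters 2 (2944 nuclei) and 5 (2189 nuclei), with NPPB at 7.02 and 9.34 CPM, and WT ones in clusters 0 (3672 nuclei) and 1 (2968 nuclei), at 0.334 and 0.878 CPM. The 29 WT nuclei of cluster 5 held 18 of the 55 WT UMIs. There the level was 9.34 CPM in TG and 52.0 CPM in WT, so the order of the libraries was turned round in this small set. In cluster 2 NPPB was called higher in TG, with 147 UMIs in 2944 TG nuclei and 0 in 117 WT nuclei. In cluster 1 it was called neither, at 4.36 CPM in TG (3 UMIs) and 0.878 CPM in WT (20 UMIs). The 16 TG nuclei of cluster 0 held 0 UMIs of NPPB. Outside cardiomyocytes, NPPB was called higher in TG in fibroblast-like nuclei (5.33 CPM in TG and 1.37 CPM in WT) and in vascular endothelial-like nuclei (4.91 CPM from 51 UMIs in TG and 0.194 CPM from 1 UMI in WT). In TG the NPPB level in 7 of the 8 other classes was within 3.02 to 8.21 CPM, and Schwann or neural-like nuclei held 1 UMI. The intervals of pericytes (1.22 to 6.23) and vascular endothelium (3.66 to 6.46) lay below that of cardiomyocytes in TG. In WT lymphocyte-like nuclei NPPB stood at 5.32 CPM, and 14 of the 15 UMIs lay in 1 nucleus. The cardiomyocyte markers in these classes were higher in TG as well, and their part in the NPPB levels was not tested.

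**Figure D1:**
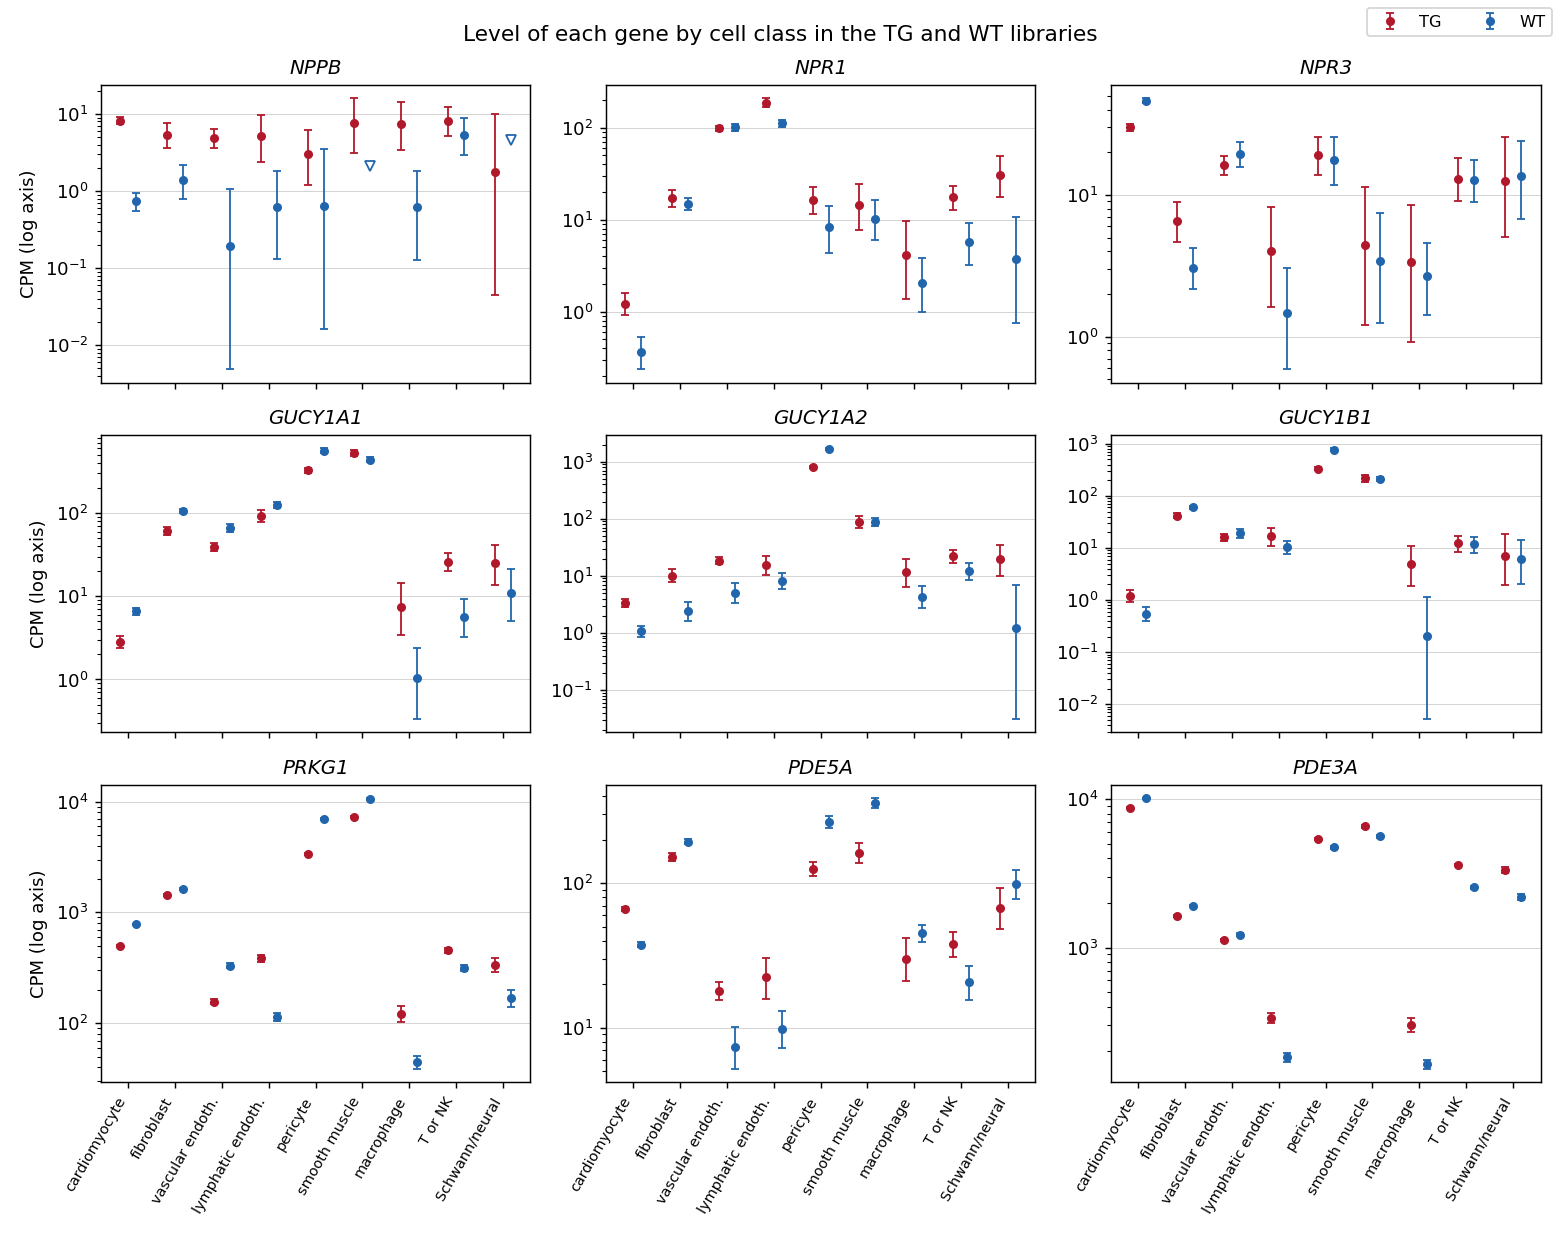
Level of each gene in CPM (vertical, log axis) in 9 cell classes (horizontal) of the TG library (red, left of each pair) and the WT library (blue, right). Points are summed levels, bars are exact 95% Poisson intervals, and open triangles mark the upper limit where no UMI was found. NPR1 was highest in the endothelial classes, the 3 cyclase subunits and PRKG1 in pericyte-like or smooth muscle-like nuclei, and PDE3A and NPR3 in cardiomyocyte-like nuclei.

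NPR1, the guanylate cyclase receptor of the peptides, was highest in the endothelial classes in both libraries. It led in lymphatic endothelial-like nuclei (186 CPM in TG and 112 CPM in WT), followed by vascular endothelial-like nuclei (98.5 CPM in TG and 100.4 CPM in WT). The intervals of these 2 classes were apart in TG and overlapped in WT. In every other compared class NPR1 stood at 30.3 CPM or less in TG and 14.9 CPM or less in WT. A UMI of NPR1 was found in 39.3% of TG and 40% of WT lymphatic nuclei, in 25.6% of TG and 28.2% of WT vascular endothelial nuclei, and in 1.04% of TG and 0.383% of WT cardiomyocyte-like nuclei despite the greater depth of the last. Thinned to 1000 UMIs, the lymphatic shares were 16.0% in TG and 10.4% in WT and the vascular shares 9.48% in TG and 10.2% in WT.

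Vascular endothelial NPR1 did not differ by the fold between the libraries as a class, with a ratio of 0.981 (0.882 to 1.09). Its clusters behaved differently from each other. In cluster 17, led by GJA5, SEMA3G and JAG2, NPR1 stood at 76.1 CPM in TG (117 UMIs in 359 nuclei) and 14.7 CPM in WT (11 UMIs in 145 nuclei). In cluster 4, led by ADGRF5, BTNL9 and FLT1, it was 103 CPM in TG and 143 CPM in WT, and in cluster 8, led by SERTM1 and STC1, 101 CPM in TG and 96.7 CPM in WT. Thus the arrangement of NPR1 over the vascular clusters was uneven in WT and more even in TG. In lymphatic endothelial-like nuclei the ratio was 1.67 (1.45 to 1.92), but here 550 of 580 TG nuclei lay in cluster 16 and 916 of 925 WT nuclei in cluster 12. The 30 TG nuclei that shared cluster 12 had 109 CPM of NPR1, against 111 CPM in the 916 WT nuclei.

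NPR1 was also called higher in TG in cardiomyocyte-like (1.22 CPM in TG and 0.361 CPM in WT), pericyte-like (16.4 CPM in TG and 8.21 CPM in WT), lymphocyte-like (17.5 CPM in TG and 5.68 CPM in WT) and Schwann or neural-like nuclei (30.3 CPM in TG and 3.69 CPM in WT). In cardiomyocytes 13 of 15 measured vascular endothelial markers were called higher in TG (25.6% over all genes), and in lymphocytes 14 of 15 (17.5%). In Schwann or neural nuclei 14 of 14 were higher (11.1%). In pericytes 7 of 15 markers were higher (12.4%) and 1 was lower, and their summed level was 1840 CPM in TG and 2009 CPM in WT. Their part in these results was not tested. The library's summed profile was also subtracted, in the amount set by the median cardiomyocyte marker. NPR1 in pericytes then stood at 0 CPM in TG and 4.58 CPM in WT. Pericyte-like nuclei with a low share of cardiomyocyte markers, by the threshold given below, numbered 154 in TG and 295 in WT. In these nuclei NPR1 stood at 39.6 CPM in TG (22 UMIs) and 10.4 CPM in WT (10 UMIs). So the order of the libraries differed between these settings.

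NPR3, the clearance receptor, was highest among the 9 compared classes in cardiomyocyte-like nuclei, at 30.0 CPM in TG (28.5 to 31.6) and 46.4 CPM in WT (44.9 to 48.0). It was called lower in TG with a ratio of 0.647 (0.607 to 0.688). A UMI was found in 18.7% of TG and 29.3% of WT cardiomyocyte nuclei, and in 2.66% of TG and 4.15% of WT nuclei after thinning, so the lower TG level held at equal depth. Of all NPR3 UMIs in named nuclei, cardiomyocytes held 80.2% in TG and 92.9% in WT. Vascular endothelial-like nuclei had 16.2 CPM in TG and 19.4 CPM in WT, which was 53.9% of the cardiomyocyte level in TG and 41.7% in WT, against 12.4% in TG and 10.7% in WT for the cardiomyocyte marker RYR2. Most of it lay in cluster 8, at 33.7 CPM in TG (120 UMIs) and 22.1 CPM in WT (59 UMIs), while cluster 17 had 16.3 CPM in TG (25 UMIs) and 40.1 CPM in WT (30 UMIs). So the WT level was higher than the TG level in cluster 17 and lower in cluster 8. Fibroblast-like nuclei had 38 NPR3 UMIs in each library, at 6.53 CPM in TG and 3.07 CPM in WT, and were called higher in TG. Within cluster 6 the level was 6.72 CPM in TG (38 UMIs) and 11.1 CPM in WT (2 UMIs in 42 nuclei). The median cardiomyocyte marker in fibroblasts was at 16.2% of its cardiomyocyte level in TG and 4.82% in WT, and after subtraction of the library's summed profile, scaled to the cardiomyocyte markers, NPR3 stood at 1.00 CPM in TG and 0.766 CPM in WT.

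Classes too small for a comparison also held the receptors. NPR1 stood at 107 CPM (64.7 to 168, 19 UMIs) in the 30 adipocyte-like nuclei of TG and 68.3 CPM (22.2 to 159, 5 UMIs) in the 12 of WT. NPR3 stood at 124 CPM (77.9 to 188) in the TG adipocyte-like nuclei and 41.0 CPM (8.45 to 120) in the WT ones, from 22 UMIs in TG and 3 in WT. The 28 dendritic-like nuclei of TG had 104 CPM from 14 UMIs and the 128 of WT 24.1 CPM from 19 UMIs. Cluster 15, set aside because it joined macrophage and cardiomyocyte markers, and led by TBXAS1, DOCK2 and PLVAP, had 89.0 CPM in TG (115 UMIs in 285 nuclei) and 53.8 CPM in WT (74 UMIs in 276 nuclei).

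The alpha and beta subunits of soluble guanylate cyclase stood at their highest levels in mural nuclei, that is, those of pericytes and smooth muscle. GUCY1A2 was the most restricted, with pericytes holding 75.3% of its UMIs in TG and 87.0% in WT, and smooth muscle-like nuclei far lower at 88.3 CPM in TG and 87.1 CPM in WT. GUCY1B1 was highest in pericytes and next in smooth muscle (217 CPM in TG and 211 CPM in WT), with pericytes holding 50.8% of its UMIs in TG and 47.4% in WT. GUCY1A1 was spread more widely. It was highest in smooth muscle in TG (527 CPM) and in pericytes in WT (562 CPM), and reached 92.4 CPM in TG and 125 CPM in WT in lymphatic endothelium and 60.5 CPM in TG and 105 CPM in WT in fibroblasts. In the RefSeq table of the Sscrofa11.1 build, GUCY1A1 (chromosome 8, 44448758 to 44520737) and GUCY1B1 (chromosome 8, 44544364 to 44604690) are neighbours, listed there as GUCY1A3 and GUCY1B3, while GUCY1A2 lies on chromosome 9.

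The subunits were found together in the same nuclei. In pericytes GUCY1A2 was present in 91.1% of TG and 88.6% of WT nuclei that had a GUCY1B1 UMI, against 68.7% of TG and 47.8% of WT nuclei without one. After thinning to 1000 UMIs GUCY1A2 was present in 66.9% of TG and 77.7% of WT nuclei with GUCY1B1, against 47.8% of TG and 59.5% of WT nuclei without it. In smooth muscle GUCY1A1 was present in 61.0% of TG and 57.7% of WT thinned nuclei with GUCY1B1, against 36.4% of TG and 18.7% of WT nuclei without. In pericytes and smooth muscle, at equal depth, each alpha subunit was thus more frequent in nuclei with the beta subunit than in those without. The smooth muscle class joins 2 clusters of unlike subunit level, with WT GUCY1B1 at 563 CPM in cluster 20 and 53.6 CPM in cluster 23. The shares were not split by cluster, so for smooth muscle a difference between clusters cannot be told apart from pairing within nuclei. They were not split by cardiomyocyte signal either. TG pericyte-like nuclei of low cardiomyocyte signal had 1349 CPM of GUCY1A2 and 525 CPM of GUCY1B1, against 818 and 332 CPM in the whole class. So for pericytes a difference in that signal between nuclei cannot be told apart from pairing.

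In pericyte-like nuclei all 3 subunits were called lower in TG. GUCY1A1 had 326 CPM in TG (303 to 350) and 562 CPM in WT (526 to 601), with a ratio of 0.580 (0.526 to 0.640). GUCY1A2 had 818 CPM in TG (782 to 856) and 1649 CPM in WT (1586 to 1713), with a ratio of 0.496 (0.468 to 0.527). GUCY1B1 had 332 CPM in TG (309 to 356) and 773 CPM in WT (731 to 818), with a ratio of 0.429 (0.392 to 0.470). PRKG1 had 3354 CPM in TG and 6940 CPM in WT, and PDE5A 125 CPM in TG and 265 CPM in WT, so both were lower to a like extent. PDE3A, with 5414 CPM in TG and 4759 CPM in WT, and NPR3, with 19.0 CPM in TG and 17.7 CPM in WT, were called neither higher nor lower. Thus 5 of 8 measured genes were lower in TG pericytes, where 12.0% of the 11633 measured genes were, and 1 of 8 was higher, where 12.4% were.

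The class's own markers were lower as well. Of 10 pericyte markers 10 were called lower in TG, with a median log2 ratio of -1.06, beside -0.79 for GUCY1A1, -1.01 for GUCY1A2, -1.22 for GUCY1B1, -1.05 for PRKG1 and -1.08 for PDE5A. Among the nuclei in which cardiomyocyte markers took at most 20% of their median share in cardiomyocytes, 154 TG and 295 WT pericyte-like nuclei remained. There GUCY1A1 had 491 CPM in TG and 795 CPM in WT, GUCY1A2 1349 CPM in TG and 2310 CPM in WT, GUCY1B1 525 CPM in TG and 1053 CPM in WT, and PRKG1 5166 CPM in TG and 8968 CPM in WT, while 9 of 10 pericyte markers were lower with a median log2 ratio of -0.91. When the library's summed profile was subtracted in the amount set by the median cardiomyocyte marker (77.8% of the TG pericyte profile and 46.0% of the WT one), the log2 ratios became 0.44 for GUCY1A1, 0.24 for GUCY1A2, 0.0138 for GUCY1B1 and 0.0919 for PRKG1. The 5 genes lay on both sides of the median marker in TG pericytes, and 4 of them were no longer lower after the subtraction. The fifth, PDE5A, was then at 328 CPM in TG and 437 CPM in WT, lower by less than the fold.

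**Figure D2:**
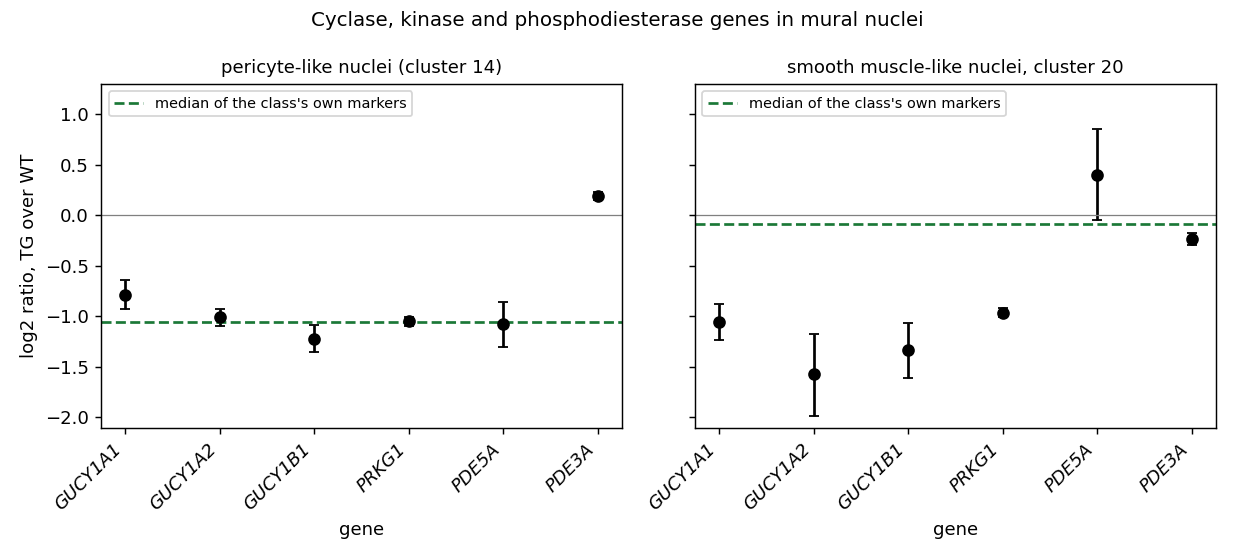
The log2 ratio of TG over WT (vertical) for the 3 cyclase subunits, PRKG1, PDE5A and PDE3A (horizontal) in pericyte-like nuclei (left) and in cluster 20 of smooth muscle-like nuclei (right). Bars are 95% intervals of counting error, and the dashed line is the median of the class's own markers, at -1.06 in pericytes and -0.08 in cluster 20. In pericytes 5 genes lie near the line, and in cluster 20 the subunits and PRKG1 lie below it.

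In smooth muscle-like nuclei none of the 3 subunits differed by the fold as a class, with ratios of 1.20 for GUCY1A1, 1.01 for GUCY1A2 and 1.03 for GUCY1B1. The class joins 2 clusters that the libraries filled differently, cluster 20 with 225 TG and 92 WT nuclei and cluster 23, led by ITGA8, MYH11 and ACTG2, with 11 TG and 220 WT nuclei. Within cluster 20 GUCY1A1 stood at 556 CPM in TG and 1156 CPM in WT, GUCY1A2 at 93.9 CPM in TG and 280 CPM in WT, GUCY1B1 at 223 CPM in TG and 563 CPM in WT, and PRKG1 at 7417 CPM in TG and 14460 CPM in WT. The ratios were 0.481 (0.426 to 0.543) for GUCY1A1, 0.336 (0.253 to 0.443) for GUCY1A2, 0.396 (0.329 to 0.476) for GUCY1B1 and 0.513 (0.496 to 0.530) for PRKG1. The median log2 ratio of the smooth muscle markers in this cluster was -0.08. Their summed level was 10400 CPM in TG and 10490 CPM in WT, while the 10 pericyte markers summed to 1209 CPM in TG and 2509 CPM in WT there. The WT count of 92 nuclei is under the 100 set for a comparison, the cluster was singled out after its values were seen, and the part of the pericyte signal was not tested. In cluster 23 the WT nuclei had 118 CPM of GUCY1A1, 0.824 CPM of GUCY1A2 and 53.6 CPM of GUCY1B1. So the alpha and beta subunits were much lower in the second WT smooth muscle cluster than in the first.

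The 2 alpha subunits were called in opposite directions in 3 classes, a difference that was not tested. GUCY1A1 was called lower in TG in cardiomyocytes (2.83 CPM in TG and 6.60 CPM in WT), fibroblasts (60.5 CPM in TG and 105 CPM in WT) and vascular endothelium (39.2 CPM in TG and 67.0 CPM in WT). GUCY1A2 was called higher in TG in the same classes, at 3.37 CPM in TG and 1.08 CPM in WT in cardiomyocytes, 10.1 CPM in TG and 2.42 CPM in WT in fibroblasts, and 18.5 CPM in TG and 5.03 CPM in WT in vascular endothelium. It was also called higher in lymphatic endothelium, macrophages and lymphocytes. Within cardiomyocyte clusters 1, 2 and 5 both alpha subunits were called neither higher nor lower. GUCY1A2 was there at 2.91 CPM in TG (2 UMIs) and 1.05 CPM in WT in cluster 1. In cluster 2 it was at 2.87 CPM in TG and 3.91 CPM in WT (3 UMIs). In cluster 5 it was at 3.825 CPM in TG and 5.78 CPM in WT (2 UMIs). Pericyte markers were called higher in TG as well, 7 of 10 in cardiomyocytes (25.6% over all genes), 7 of 10 in fibroblasts (17.0%) and 4 of 9 in vascular endothelium (11.8%). In vascular endothelium their summed level was 206 CPM in TG and 154 CPM in WT. Their median stood there at 4.72% of the pericyte level in TG and 1.28% in WT, but that pericyte level was itself lower in TG. None of the measured markers was called lower in these 3 classes, and their part in the higher GUCY1A2 level was not tested. Within the 3 vascular clusters GUCY1A1 was called neither higher nor lower, at 3.98 CPM in TG and 4.0 CPM in WT in cluster 4, 70.7 CPM in TG and 95.2 CPM in WT in cluster 8, and 87.1 CPM in TG and 114 CPM in WT in cluster 17. The ratio was 0.742 (0.621 to 0.887) in cluster 8 and 0.766 (0.580 to 1.02) in cluster 17. Cluster 4 held 1746 of 2891 vascular nuclei in TG and 621 of 1309 in WT. GUCY1A2 was called higher in TG in each of the 3 vascular clusters. It stood at 22.0 CPM in TG and 6.28 CPM in WT (11 UMIs) in cluster 4. In cluster 8 it stood at 10.7 CPM in TG and 5.25 CPM in WT (14 UMIs). In cluster 17 it stood at 24.7 CPM in TG and 1.34 CPM in WT (1 UMI). In fibroblast cluster 6 GUCY1A1 was called neither, at 61.9 CPM in TG and 94.2 CPM in WT (17 UMIs), with a ratio of 0.657 (0.404 to 1.14). GUCY1A1 was called higher in TG lymphocyte-like nuclei, at 26.1 CPM in TG and 5.68 CPM in WT. There 5 of 7 measured pericyte markers and 6 of 6 measured smooth muscle markers were higher too (17.5% over all genes). Their part in this call was not tested. GUCY1B1 was called higher in TG cardiomyocytes from 56 TG and 41 WT UMIs (1.20 CPM in TG and 0.548 CPM in WT).

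PRKG1, the cGMP-dependent kinase, was highest in smooth muscle (7204 CPM in TG and 10550 CPM in WT), then in pericytes, fibroblasts (1437 CPM in TG and 1630 CPM in WT) and cardiomyocytes, an order shared by the libraries among the 9 compared classes. Dendritic-like nuclei, too few for a comparison, had 634 CPM in TG (28 nuclei) and 985.5 CPM in WT (128 nuclei). Because cardiomyocytes gave most UMIs, they still held 46.5% of the PRKG1 UMIs in TG and 52.1% in WT. In cardiomyocytes it stood at 498 CPM in TG (492 to 505) and 785 CPM in WT (779 to 792), with a ratio of 0.635 (0.625 to 0.645). It was found in 65.9% of TG and 78.9% of WT nuclei, and in 30.9% of TG and 42.7% of WT nuclei after thinning. Within clusters, PRKG1 had 490 CPM in the 2944 TG nuclei and 806 CPM in the 117 WT nuclei of cluster 2, 443 CPM in the 161 TG nuclei and 765 CPM in the 2968 WT nuclei of cluster 1, and 505 CPM in the 2189 TG nuclei and 676 CPM in the 29 WT nuclei of cluster 5. In cluster 0 the order was turned round, at 871 CPM in 16 TG nuclei (115 UMIs) and 794.5 CPM in 3672 WT nuclei.

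In endothelium the kinase went both ways. In vascular endothelial-like nuclei it was called lower in TG (157 CPM in TG and 331 CPM in WT), with 336 CPM in TG and 832 CPM in WT in cluster 17 and 229 CPM in TG and 385 CPM in WT in cluster 8, but 55.9 CPM in TG and 34.8 CPM in WT in cluster 4. In lymphatic endothelial-like nuclei it was called higher, at 385 CPM in TG and 114 CPM in WT, found in 37.2% of TG and 12.1% of WT nuclei and in 22.1% of TG and 5.53% of WT thinned nuclei. The 30 TG nuclei of cluster 12 had 414 CPM, against 72.2 CPM in the 916 WT nuclei of that cluster. In cluster 16 the order was turned round, at 383 CPM in the 550 TG nuclei and 3861 CPM in 9 WT nuclei, which held 204 of the 544 WT UMIs. In TG lymphatic nuclei, where 11.9% of all genes were called higher, so were 5 of 5 measured pericyte markers. Their summed level there was 147 CPM in TG and 47.9 CPM in WT. Their median was 6.84% of the pericyte level in TG and 0.955% in WT, but that pericyte level was itself lower in TG. PRKG1 was also called higher in TG macrophage-like nuclei (121 CPM in TG and 44.6 CPM in WT) and Schwann or neural-like nuclei (336 CPM in TG and 168 CPM in WT). Of measured smooth muscle markers, 6 of 6 were called higher in TG macrophages (14.9% over all genes) and 4 of 6 in Schwann or neural nuclei (11.1%). Of measured pericyte markers, 3 of 5 were higher in macrophages and 3 of 4 in Schwann or neural nuclei. Of 14 fibroblast markers, 10 were higher in lymphatic nuclei, 7 in macrophages and 6 in Schwann or neural nuclei, with 1 lower in the last. After subtraction of the library-wide profile PRKG1 stood at 1.01 CPM in TG and 0.198 CPM in WT in macrophages. It stood at 0 in both libraries in Schwann or neural nuclei, and at 331 CPM in TG and 59.8 CPM in WT in lymphatic endothelium. Among nuclei of low cardiomyocyte signal, macrophage PRKG1 stood at 138 CPM in TG (103 UMIs) and 39.0 CPM in WT (178 UMIs). Lymphatic PRKG1 stood there at 312 CPM in TG (350 UMIs) and 113 CPM in WT (500 UMIs). The part of transcripts from other classes in these PRKG1 levels was not tested.

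PDE5A, the cGMP-specific phosphodiesterase, was highest in smooth muscle (162 CPM in TG and 357 CPM in WT). In TG the next class, fibroblasts, at 151 CPM, had an overlapping interval. In WT the next class was pericytes, at 265 CPM, ahead of fibroblasts at 193 CPM. Smooth muscle PDE5A was called lower in TG as a class, with a ratio of 0.454 (0.377 to 0.545). The WT level came mostly from cluster 23, at 465 CPM, while cluster 20 had 153 CPM in TG and 116 CPM in WT. So within the cluster that held nearly all TG smooth muscle nuclei PDE5A was not lower in TG.

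In cardiomyocytes PDE5A was called higher in TG, at 66.4 CPM in TG (64.1 to 68.8) and 37.5 CPM in WT (36.1 to 38.9), with a ratio of 1.77 (1.68 to 1.87). It was found in 32.9% of TG and 22.4% of WT nuclei, although TG nuclei were shallower, with medians of 7635 UMIs in TG and 10038 in WT. After thinning the shares were 5.99% in TG and 3.35% in WT. Within the clusters that both libraries entered, the level was 52.1 CPM in TG and 61.2 CPM in WT in cluster 2 (117 WT nuclei), 29.1 CPM in TG and 26.7 CPM in WT in cluster 1 (161 TG nuclei), 79.5 CPM in TG and 144.5 CPM in WT in cluster 5 (29 WT nuclei), and 68.1 CPM in TG (9 UMIs in 16 nuclei) and 41.2 CPM in WT in cluster 0. PDE5A was thus higher in TG in clusters 0 and 1 and lower in TG in clusters 2 and 5 by its level, and called higher in TG in none of clusters 1, 2 and 5. PDE5A was called higher in TG in vascular endothelium (18.0 CPM in TG and 7.35 CPM in WT), lymphatic endothelium (22.4 CPM in TG and 9.87 CPM in WT) and lymphocytes (37.7 CPM in TG and 20.6 CPM in WT). The median cardiomyocyte marker was higher in TG in all 3 of these classes, at 19.7% in TG and 12.9% in WT in vascular endothelium, 11.7% in TG and 4.05% in WT in lymphatic endothelium, and 45.8% in TG and 23.2% in WT in lymphocytes. After subtraction, with values below 0 set to 0, PDE5A stood at 0 in both libraries in vascular endothelium and lymphocytes. In lymphatic endothelium it stood at 13.6 CPM in TG and 6.63 CPM in WT. In nuclei of low cardiomyocyte signal, vascular PDE5A stood at 12.7 CPM in TG (78 UMIs) and 4.26 CPM in WT (18 UMIs). Lymphocyte PDE5A stood there at 23.9 CPM in TG and 18.5 CPM in WT. PDE5A was called higher in TG in each of vascular clusters 4, 8 and 17. The part of cardiomyocyte transcripts in these levels was not tested.

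PDE3A was a cardiomyocyte transcript by mass, with 88.5% of its UMIs in TG and 92.6% in WT from that class. It stood at 8791 CPM in TG cardiomyocytes and 10160 CPM in WT ones and was called neither higher nor lower, with a ratio of 0.865 (0.862 to 0.869). It was found in 98.0% of TG and 98.1% of WT cardiomyocyte nuclei. It was next highest in smooth muscle (6585 CPM in TG and 5639 CPM in WT) and pericytes. In lymphatic endothelium it was called higher in TG (336 CPM in TG and 182 CPM in WT), as in macrophages (300 CPM in TG and 163 CPM in WT) and Schwann or neural nuclei (3324 CPM in TG and 2191 CPM in WT).

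As a percent of its cardiomyocyte level, PDE3A in several classes stood near the cardiomyocyte marker RYR2. The markers ranged widely, from 11.2% to 146% in TG vascular endothelium, and the source of these transcripts was not tested. In vascular endothelium PDE3A was at 12.8% of the cardiomyocyte level in TG and 12.1% in WT, beside 12.4% in TG and 10.7% in WT for RYR2. In lymphocytes it was at 40.9% in TG and 25.2% in WT, beside 41.7% in TG and 21.4% in WT for RYR2. In Schwann or neural nuclei PDE3A was at 37.8% in TG and 21.6% in WT beside 32.3% in TG and 23.6% in WT for RYR2. In smooth muscle it was above RYR2, at 74.9% in TG and 55.5% in WT against 26.6% in TG and 28.6% in WT, but below the marker CTNNA3, at 99.9% in TG and 78.9% in WT. In fibroblasts PDE3A was at 18.6% in TG and 18.9% in WT, beside 5.46% in TG and 2.83% in WT for RYR2 and 16.2% in TG and 4.82% in WT for the median marker. Pericytes had PDE3A at 61.6% in TG and 46.8% in WT, beside 49.9% in TG and 29.4% in WT for RYR2. After subtraction PDE3A stood at 6942 CPM in TG and 4491 CPM in WT in smooth muscle. In pericytes it stood at 2510 CPM in TG and 2650 CPM in WT. In fibroblasts it stood at 293 CPM in TG and 1523 CPM in WT. A PDE3A UMI was found in 61.8% of TG and 29.6% of WT lymphocyte-like nuclei, with medians of 3030 UMIs in TG and 3403 in WT, so a share of that size was reached where PDE3A stood near RYR2.

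**Figure D3:**
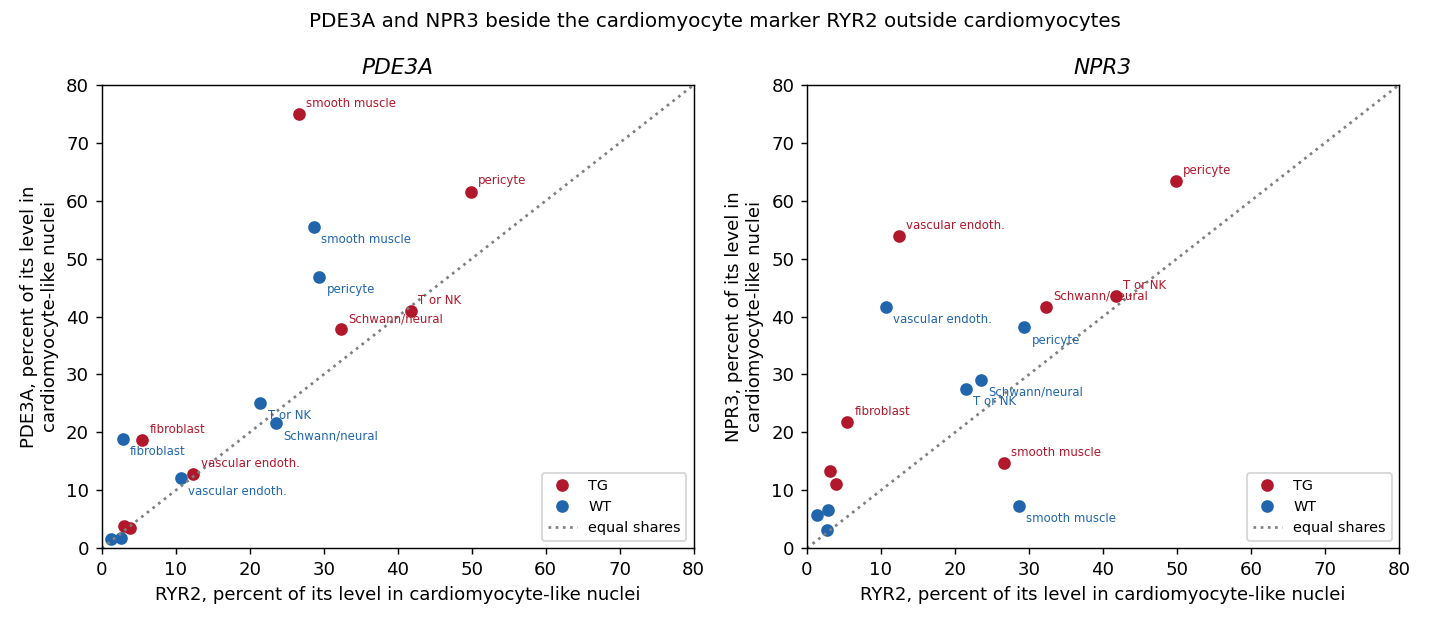
PDE3A (left) and NPR3 (right) outside cardiomyocytes, as a percent of their level in cardiomyocyte-like nuclei (vertical), against the same percent for the cardiomyocyte marker RYR2 (horizontal). Points are classes of the TG (red) and WT (blue) libraries, points near the origin carry no name, and the dotted line marks equal shares. Smooth muscle, pericytes and fibroblasts lie farthest above the line for PDE3A in both libraries. For NPR3 every class but smooth muscle lies above it, with vascular endothelium at 53.9% in TG and 41.7% in WT.

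Over the 9 genes in cardiomyocytes, 5 were called higher in TG (NPPB, NPR1, GUCY1A2, GUCY1B1 and PDE5A), where 25.6% of 18898 measured genes were, and 3 lower (NPR3, GUCY1A1 and PRKG1), where 8.78% were. The median log2 ratio of the 9 was 0.82, beside 0.08 over all measured genes. In CPM, the most abundant gene took 13.9% of cardiomyocyte UMIs in TG and 6.37% in WT, and without it in the total only 1 gene was lower by the fold, with log2 ratios of -0.51 for NPR3 and -0.53 for PRKG1. Outside cardiomyocytes 58 of 72 pairs of gene and class had enough UMIs. Of these 22 were called higher in TG, 9 lower and 27 neither, and their median log2 ratio was 0.24. The calls lower in TG were 5 in pericytes, 2 in vascular endothelium, where 7.69% of all measured genes were lower, 1 in fibroblasts, where 9.11% were, and 1 in smooth muscle, where 8.20% were, with none in lymphatic endothelium (7.79% of all measured genes), macrophages (6.86%), lymphocytes (13.6%) and Schwann or neural nuclei (9.40%). The calls higher were 5 of 7 in lymphatic endothelium, where 11.9% of all measured genes were higher, 4 of 9 in lymphocytes (17.5%), 3 of 9 in fibroblasts (17.0%), 3 of 9 in vascular endothelium (11.8%), 3 of 4 in macrophages (14.9%), 3 of 5 in Schwann or neural nuclei (11.1%), 1 in pericytes and none in smooth muscle (15.8%).

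**Figure D4:**
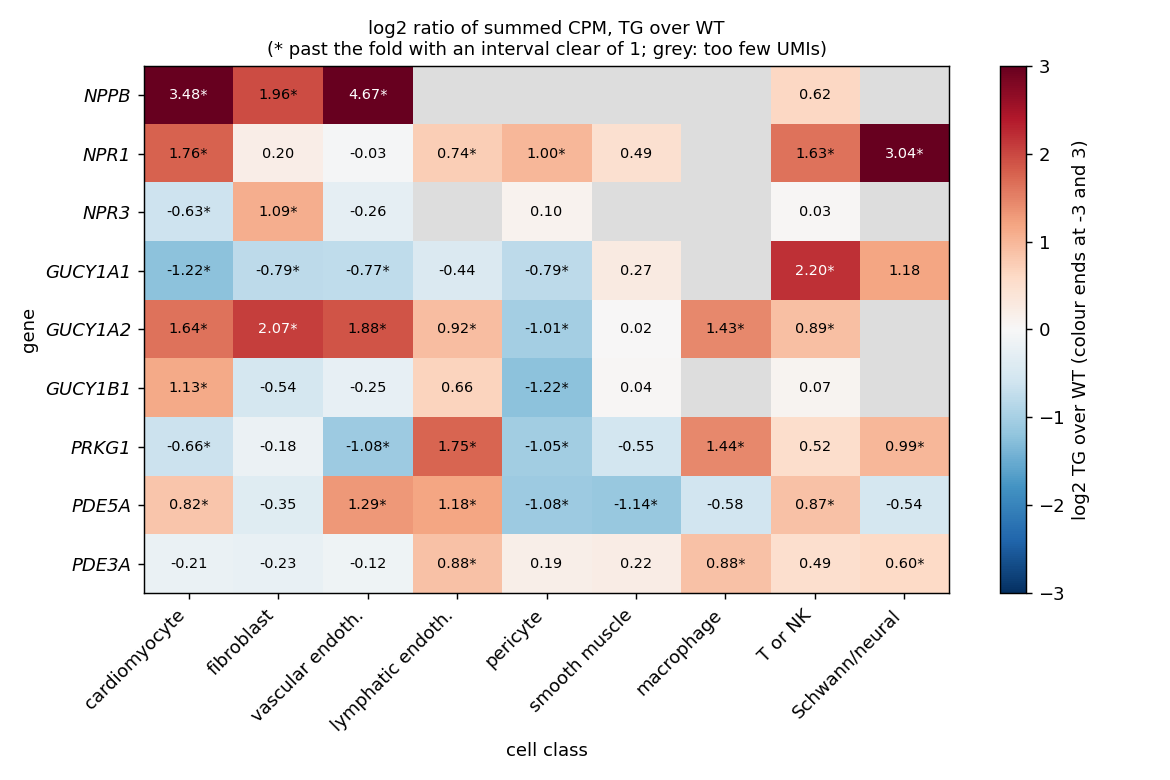
The log2 ratio of TG over WT for the 9 genes (rows) in 9 cell classes (columns), with the value in each cell. Red is higher in TG and blue is higher in WT, asterisks mark calls, and grey cells had under 20 UMIs in both libraries together. GUCY1A2 is higher in TG in 6 classes and lower in pericytes, where 5 genes are lower.

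Genes around the pathway were read from a list of 55, of which 43 were in the matrices. In cardiomyocytes TG was called higher for 14 of 37 measured genes (25.6% over all genes) and lower for 3 (8.78% over all genes), and the median log2 ratio was 0.47, beside 0.08 over all genes. CORIN, the protease that activates natriuretic peptide precursors, had the highest level of these, at 768 CPM in TG and 389 CPM in WT, with a ratio of 1.98 (1.95 to 2.01). It was also called higher in 6 other classes. In lymphatic endothelium (27.5 CPM in TG and 22.9 CPM in WT) and smooth muscle (139 CPM in TG and 96.2 CPM in WT) CORIN was called neither. The median cardiomyocyte marker was higher in TG in all of these classes, and its part in the CORIN levels was not tested. HSPB6, a small heat shock protein and kinase target, was called higher in 9 of 9 classes, but its TG level was alike in all of them (154 to 269 CPM in TG and 35.3 to 97.0 CPM in WT). Among phosphodiesterases, PDE1A (10.2 CPM in TG and 4.44 CPM in WT), PDE1C (4.32 CPM in TG and 2.10 CPM in WT), PDE2A, PDE6C, PDE9A, PDE10A and PDE11A were higher in cardiomyocytes, all at 10.2 CPM or less in TG. MME, the protease neprilysin that degrades the peptides, OSTN, a ligand of NPR3, NOSTRIN, a partner of the endothelial nitric oxide synthase, and the channel gene CNGA1 were called higher as well. FURIN (12.9 CPM in TG and 19.8 CPM in WT), the potassium channel gene KCNMA1 (39.3 CPM in TG and 60.6 CPM in WT) and RGS2 (0.751 CPM in TG and 3.40 CPM in WT) were called lower.

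In pericytes TG was called lower for 10 of 29 measured list genes (12.0% over all genes) and higher for 4 (12.4% over all genes), and the median log2 ratio was -0.45, beside -0.04 over all genes. PDE1C was highest in pericytes and had 901 CPM in TG and 2121 CPM in WT, and PDE10A 552 CPM in TG and 1024 CPM in WT. RGS4 (29.0 CPM in TG and 96.7 CPM in WT) and PDE6A (13.8 CPM in TG and 84.0 CPM in WT) were also highest in pericytes and called lower there. In fibroblasts MME, at its highest there, had 406 CPM in TG and 760 CPM in WT. KCNMA1 was called lower in TG in 5 classes, among them vascular endothelium, at 212 CPM in TG and 537 CPM in WT, and smooth muscle, at 386 CPM in TG and 654 CPM in WT. NOS3, the endothelial nitric oxide synthase, was highest in vascular endothelium and differed there by less than the fold, at 83.8 CPM in TG and 118 CPM in WT. IRAG1, a substrate of the kinase that sits on the calcium store, was highest in smooth muscle, at 1205 CPM in TG and 1059 CPM in WT. PDE2A was highest in lymphatic endothelium and called lower there, at 104 CPM in TG and 229 CPM in WT. PDE1A was highest in smooth muscle, at 1795 CPM in TG and 1831 CPM in WT, and PDE9A in vascular endothelium, at 67.2 CPM in TG and 57.1 CPM in WT. NOSTRIN was highest in vascular endothelium too, at 294 CPM in TG and 247.5 CPM in WT, and was called higher in TG in 6 other classes. PDE3B was highest in lymphocytes and called lower there, at 948 CPM in TG and 1591 CPM in WT, but higher in fibroblasts, pericytes, macrophages and Schwann or neural nuclei. The calcium channel gene TRPC6 was highest in lymphatic endothelium and called lower there, at 302 CPM in TG and 476 CPM in WT, and higher in smooth muscle, at 157 CPM in TG and 57.5 CPM in WT. VASP, a kinase substrate on actin filaments, and DDAH1, which breaks down an inhibitor of nitric oxide synthase, were called in 4 classes each and in both directions. Of the list genes that reached 50 CPM, IDE, NOS2 and PPP1R12B were highest in cardiomyocytes, PPP1R12A, RGS2 and KCNMA1 in smooth muscle, PDE1B and ABCC5 in macrophages, PDE6D and VASP in lymphocytes, and CRIP2 and DDAH1 in lymphatic endothelium.

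The genes whose levels over the 18 profiles (9 classes in 2 libraries) were most like each gene's were found by Pearson's r of log2(CPM + 1) among 6634 genes. These profiles share libraries and cardiomyocyte transcripts, so r is a description. For NPR1 they were RAMP2 (r = 0.97), SNED1 and HSPA12B, and for PDE3A they were GRB14 (r = 0.98), GNAO1 and CACNA1C. GUCY1B1 was among the 3 genes most like GUCY1A1 (r = 0.92), with CACHD1 (r = 0.93) and WTIP. For GUCY1A2 they were A2M, GRM7 and NDUFA4L2, and its own r with GUCY1B1 was 0.82 and with GUCY1A1 0.71. For GUCY1B1 they were BGN, COX4I2 and LHFPL6, for PRKG1 HMGCLL1, RGS6 and SMARCD3, and for PDE5A MAPK10, WDR35 and GEM. NPPB and NPR3 did not reach the 50 CPM set for this.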

How the data were processed

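Per the file headers, the deposited matrices hold counts of UMIs per gene and barcode, made with Cell Ranger 5.0.0. The submitters' processing notes name Cell Ranger 3.1.0, Seurat 3.1.1 and Sscrofa11.1. The labels give Chromium 3' v3.1 as the library chemistry. Barcodes were dropped below 500 genes or above 5% mitochondrial UMIs (13 genes). Both libraries were clustered together (scanpy 1.11.5, leidenalg 0.10.2) on 2000 variable genes, 30 principal components and 15 neighbours, at resolution 1, without the 9 genes and the pathway list and without batch correction. Clusters were named from marker lists, with thresholds set after the clusters were seen. No doublet caller was used, and clusters with markers of several classes were set aside (15.2% of TG and 12.5% of WT nuclei). Intervals came from scipy 1.17.1. The ratio calls were tested on simulated data. The members and the gene lists were chosen with earlier results of these data known. All 9 genes were named in every class, and list genes where called in cardiomyocytes or at least 3 classes, or, at 50 CPM or more, by their highest class. The alternatives included TMM factors from edgeR 4.0.16 on summed counts. No per-sample column was left unused. One gene of the pathway list is counted but not reported by name here.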

Additional observations from a re-analysis of the deposited data

Results flagged for a closer look

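Several genes were called in opposite directions in different classes. These differences between classes were not tested. The log2 ratios, TG over WT, follow. NPR3 was at 1.09 in fibroblasts and -0.63 in cardiomyocytes. GUCY1A1 was at 2.20 in lymphocytes, and at -1.22 in cardiomyocytes, -0.79 in fibroblasts, -0.77 in vascular endothelium and -0.79 in pericytes. GUCY1A2 was at 1.64 in cardiomyocytes, 2.07 in fibroblasts, 1.88 in vascular endothelium, 0.92 in lymphatic endothelium, 1.43 in macrophages and 0.89 in lymphocytes, and at -1.01 in pericytes. GUCY1B1 was at 1.13 in cardiomyocytes and -1.22 in pericytes. PRKG1 was at 1.75 in lymphatic endothelium, 1.44 in macrophages and 0.99 in Schwann or neural nuclei, and at -0.66 in cardiomyocytes, -1.08 in vascular endothelium and -1.05 in pericytes. PDE5A was at 0.82 in cardiomyocytes, 1.29 in vascular endothelium, 1.18 in lymphatic endothelium and 0.87 in lymphocytes, and at -1.08 in pericytes and -1.14 in smooth muscle.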

How the results depend on the processing

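The calls were recomputed under 15 other settings and 1 chosen after seeing the data, which kept nuclei outside cardiomyocytes only where cardiomyocyte signal was low. No paired analysis was possible because each genotype has 1 library. Of 39 called pairs of gene and class, 34 kept their direction wherever both libraries had a level above 0 and so gave a ratio. The genes higher in TG cardiomyocytes numbered 5, and 2 of 6 measured with nuclei thinned to 1000 UMIs. Those lower numbered 3, and 1 with the most abundant gene left out of the total and 1 at a fold of 2. Outside cardiomyocytes 22 pairs were higher, against 14 after thinning, 13 after subtraction of the library-wide profile and 13 at a fold of 2. Subtraction reversed 4 pericyte log2 ratios, to 0.44 for GUCY1A1, 0.24 for GUCY1A2, 0.0138 for GUCY1B1 and 0.0919 for PRKG1. It left 0 CPM in both libraries, and so no ratio, for PDE5A in vascular endothelium and lymphocytes. The same held for PDE3A in lymphatic endothelium and macrophages and for PRKG1 in Schwann or neural nuclei. NPR1 in pericytes, called higher in TG, was left at 0 CPM in TG and 4.58 CPM in WT. This opposite order gave no ratio, so the pair is still among the 34. Clustering each library on its own reversed GUCY1A2 in pericytes (0.14) and PDE3A in lymphatic endothelium (-2.01), and the cause was not tested. Median-of-ratios factors shifted all log2 ratios by -0.16 in cardiomyocytes, -0.22 in smooth muscle and -0.18 in macrophages, and leaving out the most abundant gene by 0.12 in cardiomyocytes. Depth allowed no call for NPPB in 5 of 9 classes.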
